A study of Oryza sativa with 6 samples.

Results

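The gene clusters that make the diterpenoid phytoalexins of rice were followed through 9 loci out of the 57839 in the count table. With earlier results of these data known, the 9 loci were chosen by locus number. Of these, 6 lie in the momilactone cluster on chromosome 4: CPS4 (LOC_Os04g09900), CYP99A3 (LOC_Os04g09920), a pair of momilactone A synthase (MAS) loci (LOC_Os04g10000 and LOC_Os04g10010), KSL4 (LOC_Os04g10060) and CYP99A2 (LOC_Os04g10160). The other 3 lie in the cluster on chromosome 2: CPS2 (LOC_Os02g36210), KSL7 (LOC_Os02g36140) and CYP76M7 (LOC_Os02g36110). Messenger RNA of mature leaves was sequenced from wild-type rice (WT, 3 libraries) and from the mutant line osatg5-1 (3 libraries), all from field-grown plants at tillering under natural long days. The labels name neither the cultivar nor the lesion in osatg5-1, and the mutant is represented by a single line. Whether the replicates came from different plants is not stated; the p-values therefore reflect the variation among these 6 libraries, part or all of which may be technical.

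The libraries held 30927816 to 39351357 counts, and 3 counts corresponded to 0.0754 to 0.0991 CPM (a locus's counts scaled to the TMM-adjusted size of its library, used throughout). Loci listed as markers of green leaf summed to 31582 to 34749 CPM per library, with 4 of 4 detected. Of these, 2 rose in osatg5-1, LOC_Os12g17600 by 2.40-fold (edgeR adjusted p = 4.06e-06) and LOC_Os12g19470 by 1.27-fold (edgeR adjusted p = 0.017, from 0.051 to 0.062 without WT replicate 2, osatg5-1 replicate 1 or osatg5-1 replicate 2). The other 2 had negative log2 fold changes that did not pass (edgeR adjusted p = 0.17 each). These were LOC_Os11g47970 at -0.14, lower without overlap, and LOC_Os01g41710 at -0.29. The part of these differences in the members' values was not tested. Of 3 loci listed as root markers, 2 were at 0 counts in every library and the third gave 15.1 to 24.6 CPM, and 3 loci listed as shoot meristem markers summed to at most 2 counts per library. LOC_Os02g02570, listed here as OsATG5, averaged 6.27 ± 0.54 CPM in WT against 7.23 ± 0.29 CPM in osatg5-1 (SD, n = 3 each), a log2 difference of 0.20 ± 0.13 (SE) short of the threshold (edgeR adjusted p = 0.32). Without knowledge of the lesion this level does not check the labels. The files name no gene, and the RefSeq table used for names (assembly ASM3414082v1) pairs none of these numbers with a name, so names and roles of loci rest on lists made for this work.

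Diterpenoid phytoalexins are antimicrobial compounds that rice leaves make in quantity after attack by the blast fungus or exposure to jasmonate. In plastids, a copalyl diphosphate synthase (CPS) first folds geranylgeranyl diphosphate, and a kaurene synthase-like enzyme (KSL) then closes the remaining ring to a diterpene. Cytochromes P450 and dehydrogenases later oxidise that diterpene. The chromosome 4 cluster leads through syn-copalyl diphosphate to the momilactones, and the chromosome 2 cluster through ent-copalyl diphosphate to the phytocassanes and oryzalexins. The ent-copalyl diphosphate used for gibberellin comes from a separate CPS gene.

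Transcripts of the clusters were lower in osatg5-1 than in WT on average at all 9 loci, but at 7 of them the difference did not pass the test. CPS2 and CYP99A3 fell, by 1.48-fold and 1.81-fold, and no member rose. Against these 2 of 9 members, 8.21% of the 23074 tested loci were called lower, 8.23% higher and 16.4% in either direction (edgeR quasi-likelihood test with Benjamini-Hochberg adjusted p under 0.05; 3 libraries per genotype). Before adjustment, 8 of the 9 members, all except KSL4, were lower with an edgeR p under 0.05, as were 15% of tested loci. In either direction, 30.4% of loci had such a p. CPS4, CYP76M7 and KSL7 were only just under that limit. At these, CYP99A2 and LOC_Os04g10010 the genotypes overlapped. The same libraries were lowest in WT and highest in osatg5-1 at all of them, so they do not count as separate results. The median log2 fold change was -0.86 over the members, with a range from -1.88 to -0.46, and 0.0016 over all tested loci, of which 11606 were positive and 11468 negative. The genotypes did not overlap at 3 members, all lower in osatg5-1, where 17.8% of tested loci were lower without overlap, 17.6% higher and 35.4% either. All 9 members passed the filter on low counts. Because the members were chosen with earlier results of these data known, the shares over all loci describe them and test nothing. In bulk leaves, fewer cells that express a gene and less RNA per cell cannot be told apart.

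**Figure D1:**
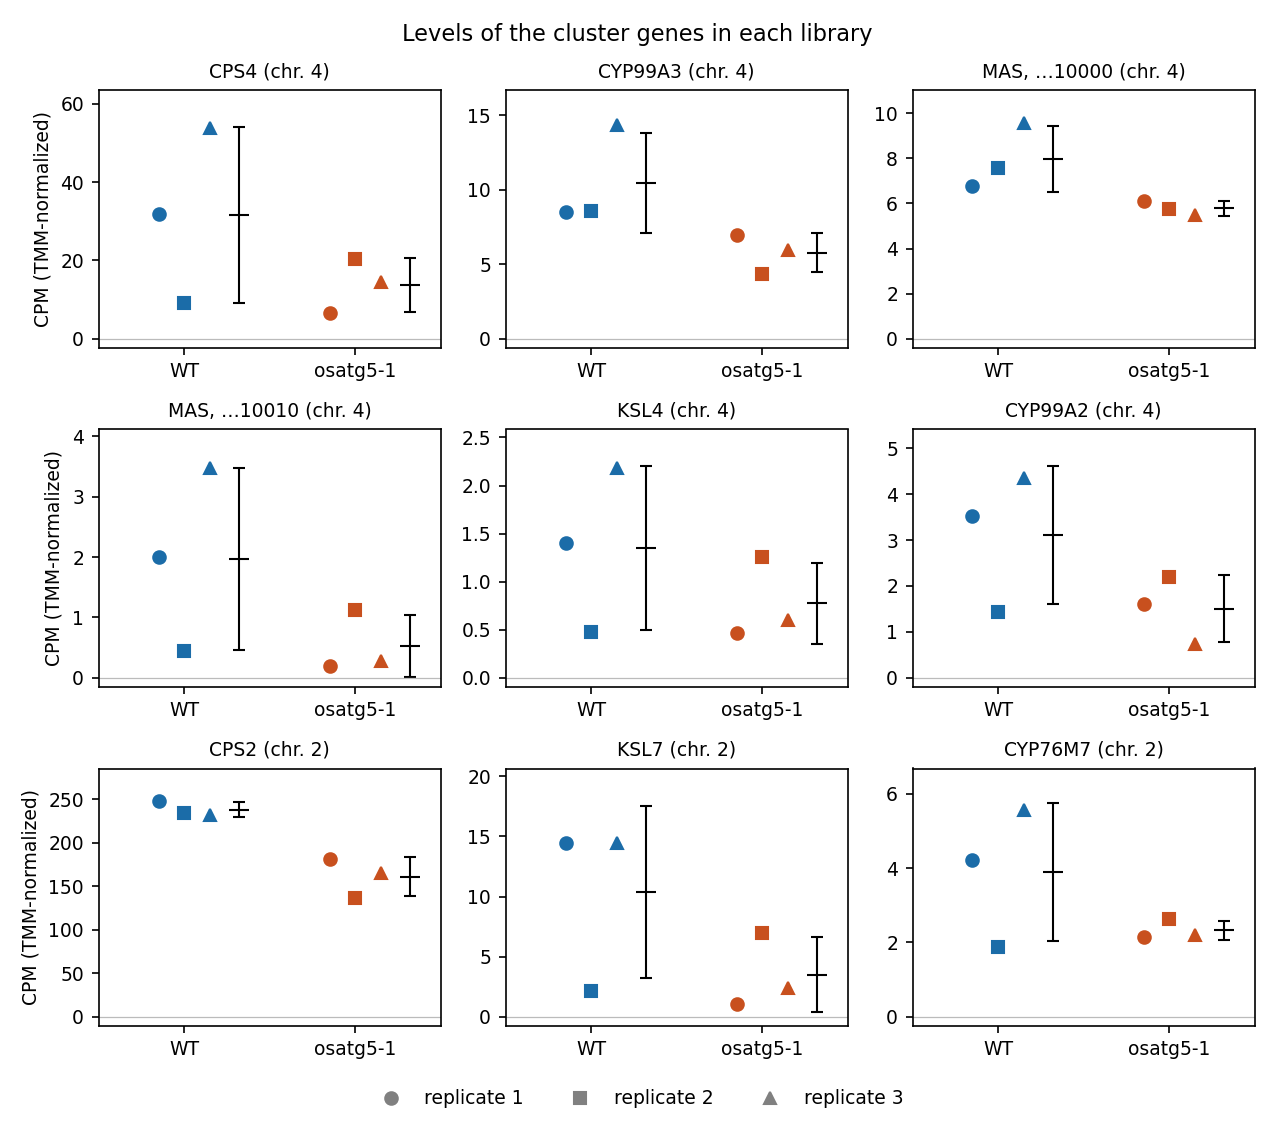
CPM of each member (vertical axes, linear, different ranges) in the 3 WT (blue) and 3 osatg5-1 (orange) libraries; symbols mark the replicate, and black bars give the mean ± SD. The genotypes are separate for CYP99A3, LOC_Os04g10000 (MAS) and CPS2, and overlap for the other 6 members.

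In the momilactone cluster, transcripts of the entry enzyme varied widely between libraries. CPS4, which forms syn-copalyl diphosphate, was at 31.9, 9.03 and 53.8 CPM in WT replicates 1 to 3 and at 6.60, 20.4 and 14.4 CPM in osatg5-1 replicates 1 to 3. WT replicate 2 lay below 2 of the 3 mutant libraries, so the groups overlapped. The means of 31.6 ± 22.4 and 13.8 ± 6.91 CPM (SD, n = 3) gave a log2 fold change of -1.19 ± 0.53 (SE) short of the threshold (edgeR adjusted p = 0.16). KSL4, the syn-pimaradiene synthase that takes the next step, was rarely read. It had 44, 15 and 66 counts in WT and 15, 46 and 24 counts in osatg5-1, or 1.40, 0.48 and 2.18 CPM against 0.471, 1.26 and 0.603 CPM. WT replicate 2 was again within the range of the mutant. Its log2 fold change of -0.79 ± 0.54 had a 95% interval from -1.98 to 0.41, which holds 0 and falls of more than 2-fold alike (edgeR adjusted p = 0.36).

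The P450 pair of the cluster, whose products oxidise syn-pimaradiene, differed in spread. CYP99A3 gave 8.48, 8.55 and 14.3 CPM for WT, while osatg5-1 gave 6.98, 4.38 and 5.93 CPM. Every mutant library lay below every WT library, and CYP99A3 fell by 0.86 ± 0.23 on the log2 scale (edgeR adjusted p = 0.031). This call was lost on leaving out WT replicate 3 (-0.57, adjusted p = 0.087), osatg5-1 replicate 2 (-0.69, adjusted p = 0.11) or osatg5-1 replicate 3 (-0.87, adjusted p = 0.077), each in the same edgeR fit. CYP99A2 measured 3.53, 1.44 and 4.36 CPM across WT and 1.60, 2.19 and 0.729 CPM across osatg5-1. The lowest WT library lay below 2 mutant libraries, and the log2 fold change of -1.05 ± 0.45 did not pass (edgeR adjusted p = 0.14). Both loci encode closely related proteins, and reads could have been split between them in counting. With their counts summed to a single locus the log2 fold change was -0.90 and passed (edgeR adjusted p = 0.018). CYP99A3, called by itself, had the larger count in every library, so the sum is no separate result for CYP99A2.

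The MAS loci, whose dehydrogenases carry out the last step to momilactone A, had unlike profiles. LOC_Os04g10000 had 6.77, 7.59 and 9.58 CPM in the WT libraries, against 6.13, 5.77 and 5.48 CPM in osatg5-1. The groups did not overlap, and the log2 fold change of -0.46 ± 0.15 missed the threshold (edgeR adjusted p = 0.068, 95% interval -0.80 to -0.12); without WT replicate 1 it was called (-0.57, adjusted p = 0.041). LOC_Os04g10010 gave 2.00, 0.448 and 3.47 CPM for WT, while osatg5-1 gave 0.189, 1.12 and 0.276 CPM. These values rest on 6 to 105 counts and overlap in osatg5-1 replicate 2 and WT replicate 2. Its log2 fold change of -1.88 ± 0.74 was the lowest of the 9 and did not pass in edgeR (adjusted p = 0.12), whereas DESeq2 called it (-1.89, adjusted p = 0.043). The RefSeq table names 1 gene of this cluster OsMAS and does not say which locus number it is. With both loci summed, the log2 fold change was -0.65 and passed (edgeR adjusted p = 0.037).

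In the chromosome 2 cluster, CPS2 had the lowest adjusted p of all members. CPS2, which forms the ent-copalyl diphosphate of phytocassanes and oryzalexins, measured 248, 234 and 232 CPM across WT and 181, 137 and 165 CPM across osatg5-1. The groups were well apart, with the highest mutant library below the lowest WT library. CPS2 fell by 0.56 ± 0.10 on the log2 scale (95% interval -0.78 to -0.35, edgeR adjusted p = 0.0032), and was called under all 14 alternative settings, with log2 fold changes from -0.65 to -0.45.

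Of the downstream members of that cluster, KSL7 varied far more than CPS2 in both genotypes, and CYP76M7 in WT only. The highest CYP76M7 library was 2.94-fold over the lowest in WT and 1.23-fold in osatg5-1, against 1.07-fold and 1.32-fold at CPS2. KSL7, which turns ent-copalyl diphosphate into ent-cassadiene, had 14.5, 2.11 and 14.5 CPM in the WT libraries, against 1.07, 7.001 and 2.44 CPM in osatg5-1. WT replicate 2 was 6.85-fold below the highest WT library, and osatg5-1 replicate 1 was 6.55-fold below the highest mutant library. The log2 fold change of -1.55 ± 0.69 did not pass (edgeR adjusted p = 0.16). CYP76M7, a P450 that hydroxylates ent-cassadiene, gave 4.22, 1.89 and 5.55 CPM for WT, while osatg5-1 gave 2.14, 2.63 and 2.21 CPM. All 3 mutant libraries lay between WT replicate 2 and the other WT libraries, and the log2 fold change was -0.74 ± 0.33 (edgeR adjusted p = 0.16). The RefSeq table gives the name CYP76M7 to a gene on chromosome 6, while the locus counted here carries a chromosome 2 number, so this name is the least certain of the 9.

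The number of members called depended on the libraries used. Without WT replicate 2, 6 of the 9 members fell, namely CPS2, CYP99A3, CPS4, KSL7, CYP76M7 and the MAS locus LOC_Os04g10010, where 5.83% of all loci tested in that fit fell (edgeR, adjusted p under 0.05). Without osatg5-1 replicate 2, LOC_Os04g10010 fell (-3.04, edgeR adjusted p = 0.044) and CYP99A3 was not called. Without WT replicate 3, or without osatg5-1 replicate 3, CPS2 alone was called. Every member had a negative log2 fold change in each of the 14 or 15 alternative settings run for it.

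The same libraries were high or low at many members. At 6 of the 9, CPS4, KSL4, CYP99A2, KSL7, CYP76M7 and LOC_Os04g10010, WT replicate 2 was the lowest WT library and osatg5-1 replicate 2 the highest mutant library. This combination held at 9.41% of all tested loci; it was singled out after the values had been seen and was not tested. At CPS2, CYP99A3 and LOC_Os04g10000, by contrast, WT replicate 2 lay between the other WT libraries, and osatg5-1 replicate 2 was the lowest mutant library at CPS2 and CYP99A3. Genes of both clusters were among the 6 with the combination and among those without it. CPS2, CYP99A3 and LOC_Os04g10000 did not share a single order of libraries. Whether library pattern goes with chromosome was not tested.

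**Figure D2:**
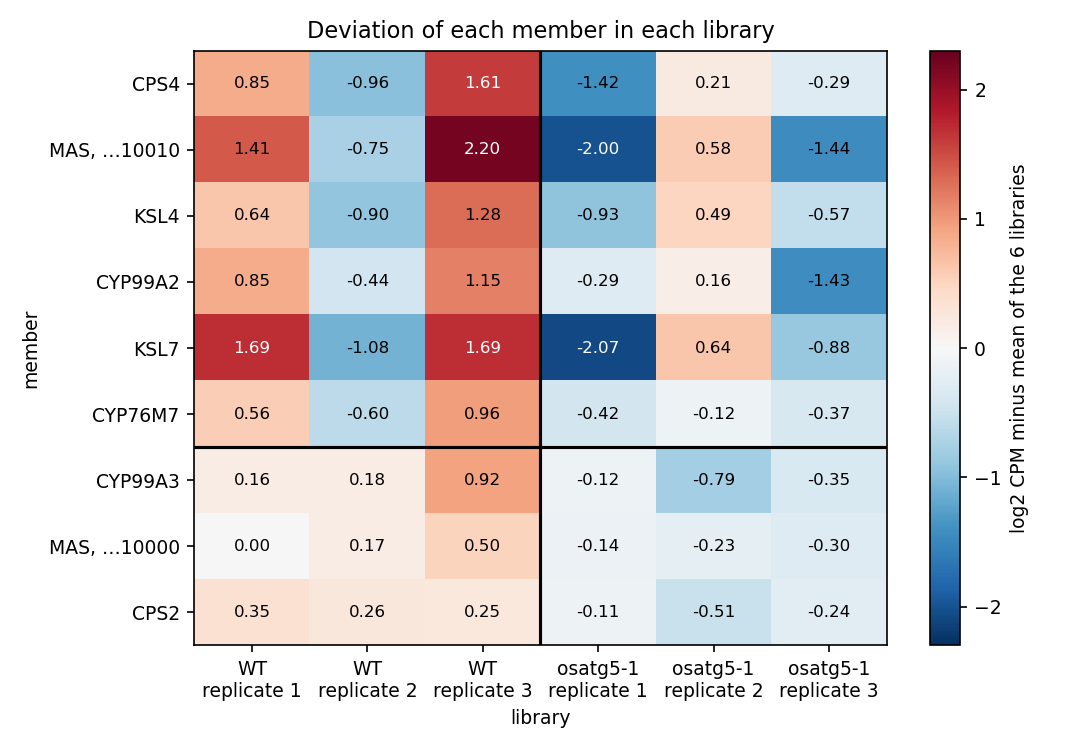
Heat map of log2 CPM minus the mean over the 6 libraries, with members in rows and libraries in columns; numbers in the cells give the value. In the upper 6 rows WT replicate 2 is below 0 and osatg5-1 replicate 2 is the highest mutant library; in the lower 3 rows all WT values are above 0 and all mutant values below it.

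The spread between replicates was large for their abundance at most members. The SD within genotype of log2(CPM + 0.5) was 1.07 for CPS4, where 7031 tested loci within 2-fold of its mean level had a median of 0.110 and 0.142% of them a larger SD. For KSL7 the SD was 1.30, and 0.225% of 5780 loci of like abundance exceeded it. For LOC_Os04g10010 it was 0.883, exceeded by 0.88% of 3977 loci. Between 2.01% and 4.04% of loci of like abundance exceeded CYP99A2, KSL4, CYP76M7 and CYP99A3. CPS2, with an SD of 0.150, was exceeded by 12.2% of 1406 loci, and LOC_Os04g10000, with 0.178, by 42.3% of 5755. These shares are descriptions of the libraries, with no test.

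**Figure D3:**
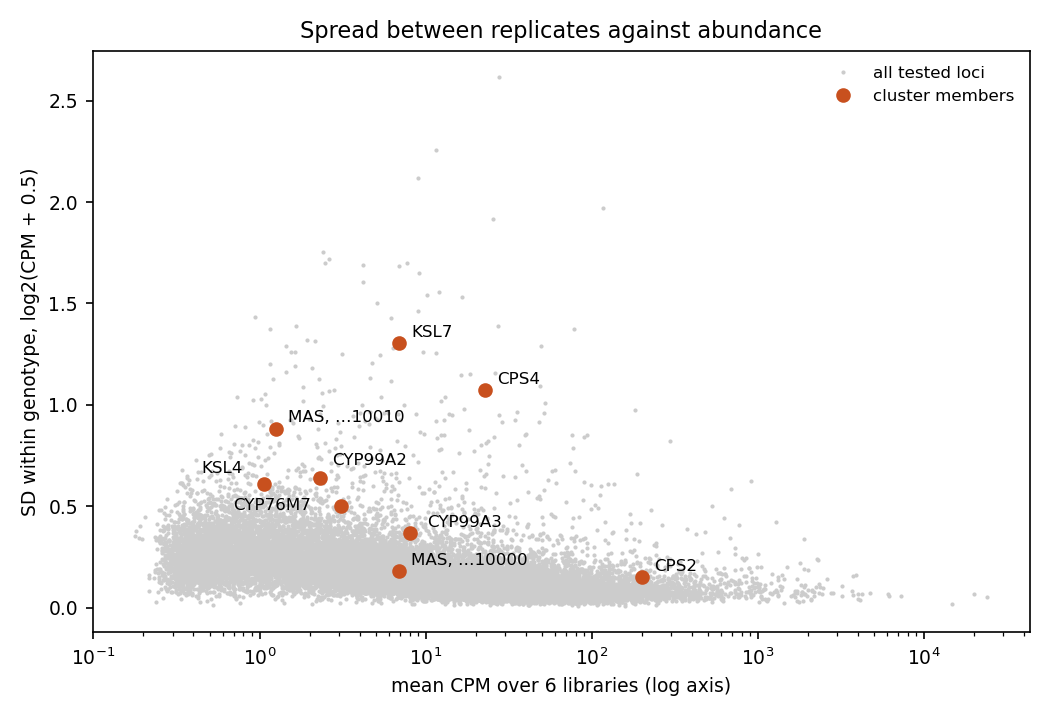
SD within genotype of log2(CPM + 0.5), vertical axis, against mean CPM over 6 libraries, horizontal log axis, for all tested loci (grey) and the 9 members (orange). KSL7 at 1.30, CPS4 at 1.07 and LOC_Os04g10010 (MAS) at 0.883 lie far above the main body of loci, and CPS2 and the other MAS locus lie within it.

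Compared per length, in the authors' FPKM, CPS2 was by far the most abundant member. It reached 68.1 ± 2.75 FPKM in WT and 47.7 ± 6.64 FPKM in osatg5-1 (SD, n = 3) and made up 90.5% to 97.8% of the summed FPKM of the 3 chromosome 2 members in each library. CPS4 followed in WT at 9.75 ± 6.88 FPKM, LOC_Os04g10000 at 6.25 ± 1.10, CYP99A3 at 4.98 ± 1.56, KSL7 at 2.98 ± 2.06 and CYP76M7 at 1.94 ± 0.93 FPKM. At the low end were CYP99A2 at 1.40 ± 0.67, LOC_Os04g10010 at 1.34 ± 1.03 and KSL4 at 0.419 ± 0.269 FPKM. Below CPS2, every pair of neighbours in this order overlapped in WT. In osatg5-1, LOC_Os04g10000 at 4.71 ± 0.27 FPKM stood before CPS4 at 4.41 ± 2.22 FPKM, again with overlap, and CYP99A3 at 2.84 ± 0.65 FPKM was above CYP76M7 at 1.20 ± 0.14 FPKM without overlap.

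The make-up of the momilactone cluster shifted with the library. CPS4 took 43.7%, 20.04% and 46.3% of the summed FPKM of the 6 chromosome 4 members in WT replicates 1 to 3, and 18.2%, 41.9% and 36.2% in osatg5-1. LOC_Os04g10000 took 23.4%, 42.9% and 20.8% in WT and 43.1%, 30.1% and 35.02% in osatg5-1. CPS4 led in 4 libraries, and LOC_Os04g10000 in WT replicate 2 and osatg5-1 replicate 1.

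Loci beside the members were examined by their numbers. Between CPS4 and CYP99A2 on chromosome 4 lie 20 further numbered loci, of which 18 had 0 counts in all libraries and none passed the filter. In the range LOC_Os02g36010 to LOC_Os02g36280 on chromosome 2 lie 23 further loci, of which 13 were at 0 counts and 7 passed the filter. All 7 had negative log2 fold changes, from -1.82 to -0.20 with a median of -0.93, and 3 fell. Among the 23074 tested loci, 11468 had negative log2 fold changes and 8.21% were called lower. These 7 loci are all on the list of other diterpenoid loci below and are counted again there. In its own assembly the RefSeq table names CYP76M5, CYP76M8, CYP71Z6, CYP71Z7, KSL5, KSL6 and CYP76M6 beside KSL7 and CPS2, further P450 and synthase genes of this cluster, without pairing them with these numbers.

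The 3 loci that fell inside the chromosome 2 range did not share a library pattern. LOC_Os02g36264 measured 54.9, 52.9 and 43.9 CPM across WT and 32.9, 24.3 and 22.4 CPM across osatg5-1, a log2 fold change of -0.93 ± 0.14 (edgeR adjusted p = 0.0016). LOC_Os02g36030 had 4.86, 3.46 and 6.08 CPM in the WT libraries, against 2.23, 1.97 and 2.76 CPM in osatg5-1, or -1.04 ± 0.24 (edgeR adjusted p = 0.014; 0.056 without osatg5-1 replicate 2). Both were separate between genotypes. LOC_Os02g36190 gave 34.5, 10.02 and 29.6 CPM for WT, while osatg5-1 gave 5.31, 10.3 and 5.28 CPM, or -1.82 ± 0.41 (edgeR adjusted p = 0.013). Its WT replicate 2 lay below osatg5-1 replicate 2, as at CPS4 and KSL7, and it was not called without osatg5-1 replicate 1 (adjusted p = 0.0503) or osatg5-1 replicate 3 (adjusted p = 0.0541).

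Flanking loci had values on both sides of 0, with 7 of 20 positive beside the chromosome 4 range and 8 of 20 beside the chromosome 2 range. Of the 10 tested loci on each side of the chromosome 4 range, LOC_Os04g10530 rose (log2 fold change 1.17 ± 0.30, edgeR adjusted p = 0.025), 0 fell and the median of the 20 was -0.10. Without WT replicate 1, WT replicate 2, osatg5-1 replicate 2 or osatg5-1 replicate 3 that rise was not called (adjusted p from 0.062 to 0.097). Of the 20 around the chromosome 2 range, LOC_Os02g35940 rose (1.23 ± 0.27, edgeR adjusted p = 0.012; 0.053 without WT replicate 2), and LOC_Os02g36380 and LOC_Os02g36450 fell (-0.33 ± 0.07 and -2.43 ± 0.18, edgeR adjusted p = 0.0078 and 2.56e-05), with a median of -0.08. The difference between members and flanking loci was not tested.

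**Figure D4:**
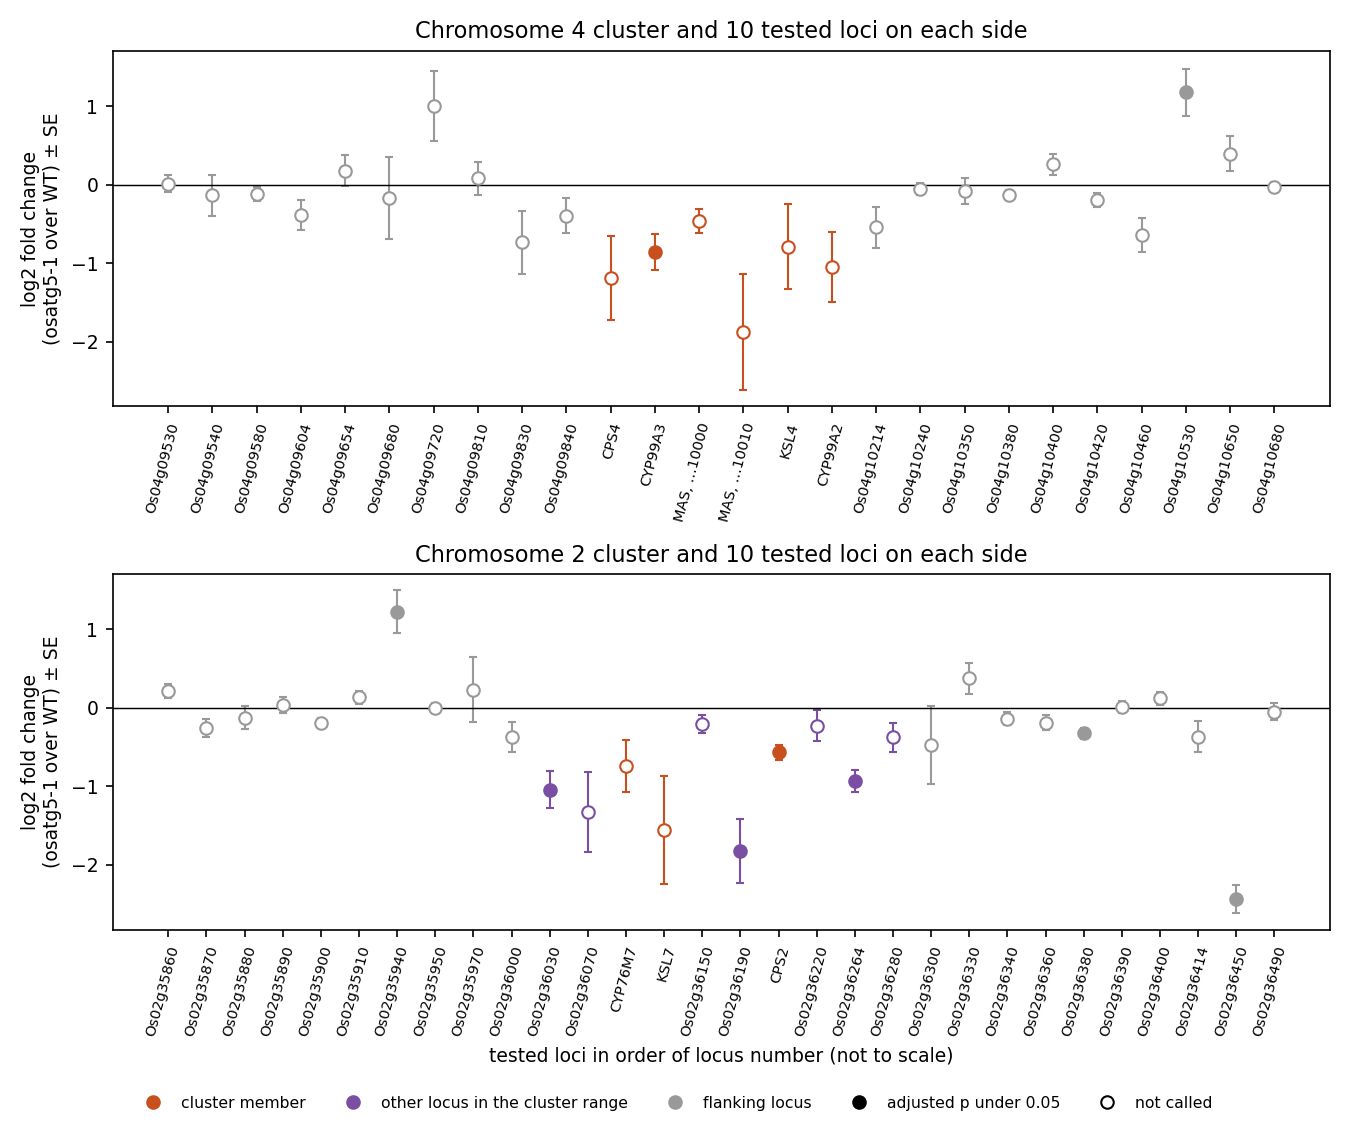
Log2 fold change of osatg5-1 over WT ± SE (vertical axis) for tested loci in order of locus number (horizontal axis, not to scale) in and around the chromosome 4 and chromosome 2 clusters; filled points passed the test. All members (orange) and all other tested loci inside the chromosome 2 range (purple) lie below 0, while flanking loci (grey) lie on both sides of it.

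Other loci listed as diterpenoid synthases or P450s had negative log2 fold changes throughout. Of 10 such loci, 7 of them inside the chromosome 2 range, 4 fell, 6 did not pass and 0 rose. Over all tested loci, 8.21% were called lower. The log2 fold changes of the 10 ranged from -2.52 to -0.05, close to 0 at the upper end, with a median of -0.93. Besides the 3 above, LOC_Os11g28530 on chromosome 11 fell, from 5.84, 4.74 and 8.49 CPM in WT to 3.46, 3.12 and 3.49 CPM in osatg5-1 (-0.92 ± 0.21, edgeR adjusted p = 0.016; 0.059 without osatg5-1 replicate 2). LOC_Os12g30824 on chromosome 12 measured 34.4, 0.80 and 10.7 CPM across WT and 0.126, 6.67 and 1.11 CPM across osatg5-1. It was low in WT replicate 2 and high in osatg5-1 replicate 2 like the 6 members above, and its difference of -2.52 ± 1.11 did not pass (edgeR adjusted p = 0.16).

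Loci listed for the supply of precursor had log2 fold changes from -0.21 to 0.72. Of 10 loci listed for the plastid isoprenoid pathway, which makes geranylgeranyl diphosphate, 2 rose, 0 fell and the median was 0.09. Called shares over all tested loci were 8.23% higher, 8.21% lower and 16.4% in either direction. LOC_Os05g33840 rose from 40.2 ± 6.10 to 66.1 ± 8.34 CPM (log2 fold change 0.72 ± 0.12, edgeR adjusted p = 0.0032). LOC_Os01g58790 rose from 15.9 ± 0.44 to 19.9 ± 0.68 CPM (0.32 ± 0.08, edgeR adjusted p = 0.024), a call lost without WT replicate 1 or 2 or osatg5-1 replicate 2 or 3 (adjusted p from 0.065 to 0.081). Of 3 loci listed for the gibberellin branch, which also passes through ent-copalyl diphosphate, 1 rose, 1 fell and 1 did not pass. LOC_Os02g17780 went from 1.75, 1.95 and 2.74 CPM in WT to 9.87, 6.43 and 7.92 CPM in osatg5-1 (1.91 ± 0.22, edgeR adjusted p = 0.00034), and LOC_Os06g37364 from 13.8, 15.02 and 14.6 CPM to 9.40, 9.13 and 9.63 CPM (-0.62 ± 0.10, edgeR adjusted p = 0.0019).

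Of 6 loci listed as regulators of defence or phytoalexin genes, 3 rose, 1 fell and 2 did not pass, with a median log2 fold change of 1.10. Over all tested loci, 8.23% were called higher and 8.21% lower. The list was not split into activators and repressors, so these directions do not give the direction of any effect on the clusters. LOC_Os05g25770 went from 30.0, 57.7 and 55.5 CPM in WT to 171, 169 and 240.3 CPM in osatg5-1 (2.02 ± 0.23, edgeR adjusted p = 0.00029). LOC_Os09g25060 went from 2.29, 9.25 and 10.5 CPM to 32.9, 39.2 and 61.6 CPM (2.61 ± 0.42, edgeR adjusted p = 0.0022), and LOC_Os09g25070 from 1.18, 3.65 and 2.31 CPM to 9.55, 12.1 and 10.1 CPM (2.15 ± 0.30, edgeR adjusted p = 0.0011). LOC_Os05g25770, LOC_Os09g25060 and LOC_Os09g25070 were all lowest in WT replicate 1. LOC_Os04g54474 fell from 40.1 ± 2.22 to 33.3 ± 0.84 CPM (-0.27 ± 0.07, edgeR adjusted p = 0.030), and was not called when any of the 6 libraries was left out (adjusted p from 0.051 to 0.12). LOC_Os01g09990 was near the filter, at 0 to 17 counts per library.

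The loci with the most similar profiles over the 6 libraries were sought for the most abundant member of each cluster, as the root mean square difference of log2(CPM + 0.5) after centring. Among loci that are no members, the nearest to CPS4 was LOC_Os02g36070, a locus inside the chromosome 2 range, at 0.389, with 10.6, 1.98 and 11.6 CPM in WT and 2.61, 4.59 and 2.44 CPM in osatg5-1. The member LOC_Os04g10010, of the same cluster, was closer to CPS4, at 0.307. The next locus outside the members was LOC_Os12g36830 at 0.391, and neither was called (edgeR adjusted p = 0.11 and 0.090). Nearest to CPS2 outside the members were LOC_Os04g54002 at 0.0471 and LOC_Os03g22050 at 0.0504, both of which fell (-0.62 ± 0.11 and -0.61 ± 0.09, edgeR adjusted p = 0.0039 and 0.0011). Centring was on the mean of the 6 libraries, so the genotype difference was part of the profile matched. Loci this close to CPS2 therefore had to fall like it, and their falls are no separate result. Among the members themselves the closest pair was KSL4 and CYP76M7, of different clusters, at 0.192, and the most distant was CPS2 and KSL7, of the same cluster, at 1.20. KSL7 was nearly as far from LOC_Os04g10000 (1.17) and CYP99A3 (1.16), of the other cluster. The measure is not scaled for spread, so a locus that varies widely lies far from those that vary little, whatever the cluster.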

How the data were processed

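Leaf mRNA was made into 6 libraries with a strand-specific kit, per the labels' protocols. The authors deposited raw counts per locus and, in separate files, FPKM values, per the file headers. HISAT2 and the build IRGSP-1.0 are listed, per the submitters' processing notes. How reads were counted, with which strand setting and annotation, is not given in the sources used here; near-identical or antisense loci may share reads. Groups and replicate numbers came from sample titles.

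Counts were tested with edgeR 4.0.16 in R 4.3.3 (filterByExpr, TMM, quasi-likelihood test, genotype as the only term, Benjamini-Hochberg adjustment over 23074 loci, called at an adjusted p under 0.05). The standard error is the size of the log2 fold change divided by the square root of F. FPKM values, as the authors deposited them, served to compare levels between genes. Same-genotype libraries differed by more than counting error (chi-square per degree of freedom at least 10.3), so none was merged. Alternatives were RLE scaling, library totals, no filter, a floor of 1 CPM in 3 libraries, limma 3.58.1 (voom, and on log2(FPKM + 1)), DESeq2 1.42.0, a replicate block, each library left out, and summed MAS or CYP99A loci. Counting floors (3 counts) cover counting error only. The members and lists were chosen with earlier results of these data known. Named are all members, called loci of the lists and neighbours, and the 2 nearest profiles of the most abundant member of each cluster; other loci were named after their values were seen.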

Additional observations from a re-analysis of the deposited data

How the results depend on the processing

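The 2 members called became 1 with limma on log2(FPKM + 1), where CYP99A3 missed the threshold, and 1 to 6 with 1 library left out; they remained CPS2 and CYP99A3 under the other scalings, filters and limma-voom, and DESeq2 added LOC_Os04g10010. Calls among the neighbouring loci (7) and the other pathway lists (12) stayed within 1.5 times under every alternative, at 5 to 8 and 9 to 14. The 3 loci that fell inside the chromosome 2 range are in both counts. With the replicate block 2 members, 7 neighbours and 13 list loci were called. Deviations from the genotype means correlated at 0.0540, -0.0192 and 0.130 between libraries sharing a number, and not every library correlated best with its own number, so the numbers were not treated as pairs. No member changed direction; of the alternative values for members, 116 stayed on the same side of the threshold, 10 passed it newly and 4, all of CYP99A3, lost it. LOC_Os04g54474 also lost its call with library totals (-0.23) and on log2(FPKM + 1), and LOC_Os02g36190 on log2(FPKM + 1). Fewer than 50 counts in some libraries limit KSL4, KSL7, CYP99A2 and LOC_Os04g10010. Over all loci, 50.1% of calls were higher in osatg5-1 in the edgeR fit and 61.0% with limma on log2(FPKM + 1); no member was higher in either.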
